A study of Mus musculus with 12 samples.

Results

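The 36 genes described here encode the enzymes, regulators and carriers with which a cell makes and senses cholesterol and makes fatty acids. They were taken as a listed module, and all 36 reached at least 10 estimated counts in at least 3 of the 12 libraries, among 13906 genes that passed that filter and 35865 that were matched to the annotation. By role, 8 encoded mevalonate enzymes, 11 sterol enzymes, 6 proteins of sterol sensing and transport, and 11 enzymes of fatty acid and lipid synthesis. Cholesterol is built from acetyl-CoA through mevalonate, isoprenoid diphosphates, squalene and lanosterol. The transcription factors encoded by Srebf1 and Srebf2 are held in the endoplasmic reticulum by Insig proteins when sterol is plentiful. When sterol is scarce Scap escorts them to the Golgi, where they are cut, and the released part switches on genes of sterol synthesis and uptake and of fatty acid synthesis. In macrophages this system is set against uptake and export of cholesterol, and it also responds to growth state and inflammatory stimuli.

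To determine how endothelial extracellular vesicles (EVs) carrying single miRNAs change macrophages, the study treated RAW 264.7 cells, a mouse macrophage-like line, with EVs collected by ultracentrifugation from MS-1 mouse endothelial cells. The EVs had been electroporated with a control mimic, giving ctrl-EVs, or with 1 of 3 miRNA mimics, giving miR-EVs named after the miRNA (miR-142-5p-EVs, for example, besides those of miR-183-5p and of miR-222-3p). They were given at 3 µg protein per ml, and poly(A) RNA was taken after 48 h. All groups, the control included, therefore received EVs and serum depleted of EVs, and no library of untreated cells was analysed here. Each group had 3 libraries, whose titles carry the numbers 1, 2 and 3, so that each number held 1 library of each of the 4 groups. What the number stands for is not stated, nor whether libraries came from separate cultures of this 1 line, so p-values measure the spread between these libraries, which may be technical.

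The libraries held 16294611 to 22974853 estimated counts, and the 4 of number 2 had the lowest totals of all (at most 18927524). All 10 macrophage markers were at 1 TPM (a level per transcript length, scaled to the same total in every library) or more throughout, whereas 6 of 10 endothelial markers stayed under 1 TPM in all libraries and Cldn5 was at 0. The summed TPM of the macrophage markers was 2269 to 2631 in number 1, 2148 to 2367 in number 2 and 3074 to 3177 in number 3. Endothelial markers summed to 15.0 to 17.7 TPM in number 2 against 25.6 to 34.1 in the other libraries. Mitochondrial genes held 4.44% to 4.59% of counts in number 1, 4.85% to 5.38% in number 2 and 3.45% to 3.89% in number 3. Number 3 thus lay apart in the summed macrophage markers and number 2 in the summed endothelial markers, but the single markers did not all follow. Fcer1g averaged 632, 592 and 1046 TPM in numbers 1, 2 and 3, whereas Adgre1 (7.13, 7.33 and 3.93) and Cd68 (347, 386 and 332) were lowest in number 3. Egfl7 averaged 21.3, 11.4 and 22.6 TPM, whereas Pecam1 (3.42, 3.40 and 2.96) and Vwf (1.25, 1.25 and 4.13) did not set number 2 apart from number 1. The part of these measures in the results was not tested.

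The abundance of the 36 genes, given per length as the mean TPM over the 12 libraries, ran from 6.86 to 630.2 with a median of 46.4, and 6 genes exceeded 100. Scd2, 1 of the stearoyl-CoA desaturases that introduce a double bond into saturated fatty acids, was the most abundant (630.2 TPM). It was followed by Fdps, which makes farnesyl diphosphate (302), the malic enzyme Me1, a source of NADPH (227), ATP citrate lyase Acly (210.1), Scd1 (162) and Insig1 (157). Among the mevalonate enzymes the levels were 35.9 TPM for the acetoacetyl-CoA thiolase Acat2, 74.1 for HMG-CoA synthase Hmgcs1, 13.7 for mevalonate kinase Mvk, 60.1 for phosphomevalonate kinase Pmvk, 55.4 for the decarboxylase Mvd, 55.3 for the isomerase Idi1 and 38.9 for Ggps1, which makes geranylgeranyl diphosphate. The early sterol enzymes stood at 38.9 TPM for squalene synthase Fdft1, 73.5 for squalene epoxidase Sqle, 43.7 for lanosterol synthase Lss and 27.0 for the lanosterol demethylase Cyp51. The later ones were 6.86 TPM for the sterol reductase Tm7sf2, 97.5 for the methylsterol oxidase Msmo1, 20.7 for the sterol dehydrogenase Nsdhl, 11.7 for the keto-sterol reductase Hsd17b7, 19.0 for the sterol isomerase Ebp, 45.5 for the desaturase Sc5d and 27.0 for Dhcr7, which reduces the last precursor to cholesterol in 1 of the pathway's branches.

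Of the sensing genes, Srebf1 was at 74.1 TPM, Srebf2 at 82.7, Scap at 20.3, Insig2 at 55.1 and Stard4, a carrier of cholesterol in the cytosol, at 37.6. Among the other lipid genes the level was 13.4 TPM for acetyl-CoA synthetase Acss2, 47.4 for acetyl-CoA carboxylase Acaca, 98.9 for fatty acid synthase Fasn and 21.3 for the elongase Elovl6. The desaturases of polyunsaturated fatty acids Fads1 and Fads2 were at 71.2 and 39.2 TPM, and the phosphatidate phosphatase Lpin1, also a nuclear coregulator, at 40.8. Every gene was measured well above the detection floor, the lowest value in any library being 75.5 estimated counts, of Tm7sf2.

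The level of most of the 36 genes varied with the title number more than with the mimic. Each library was scored by averaging log2(normalised count + 1) over the 36 genes once every gene had been centred on its 12-library mean, normalised counts being estimated counts divided by DESeq2 size factors and the length offset. The score was 0.07 ± 0.17 in number 1, 0.42 ± 0.18 in number 2 and -0.49 ± 0.02 in number 3 (SD, n = 4). The 4 scores of number 3 lay between -0.50 and -0.46, below all 8 others, while the highest of number 1 (0.21) and the lowest of number 2 (0.22) nearly met. By treatment, it was -0.15 ± 0.36 in the control group, 0.04 ± 0.44 under the miR-142-5p mimic, 0.06 ± 0.57 under that of miR-183-5p and 0.04 ± 0.49 under that of miR-222-3p (SD, n = 3). Over the 36 genes the title number took a median of 84.5% of a gene's variance in log2 normalised counts, against 69.5% over all tested genes, and the treatment took 4.70% against 7.97%. For Me1 the share of the number was 97.9% and for Srebf2 97.3%, and the lowest was 46.4% for Sc5d. In such bulk libraries a change in the make-up of the cells and a change in RNA per cell cannot be told apart.

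**Figure D1:**
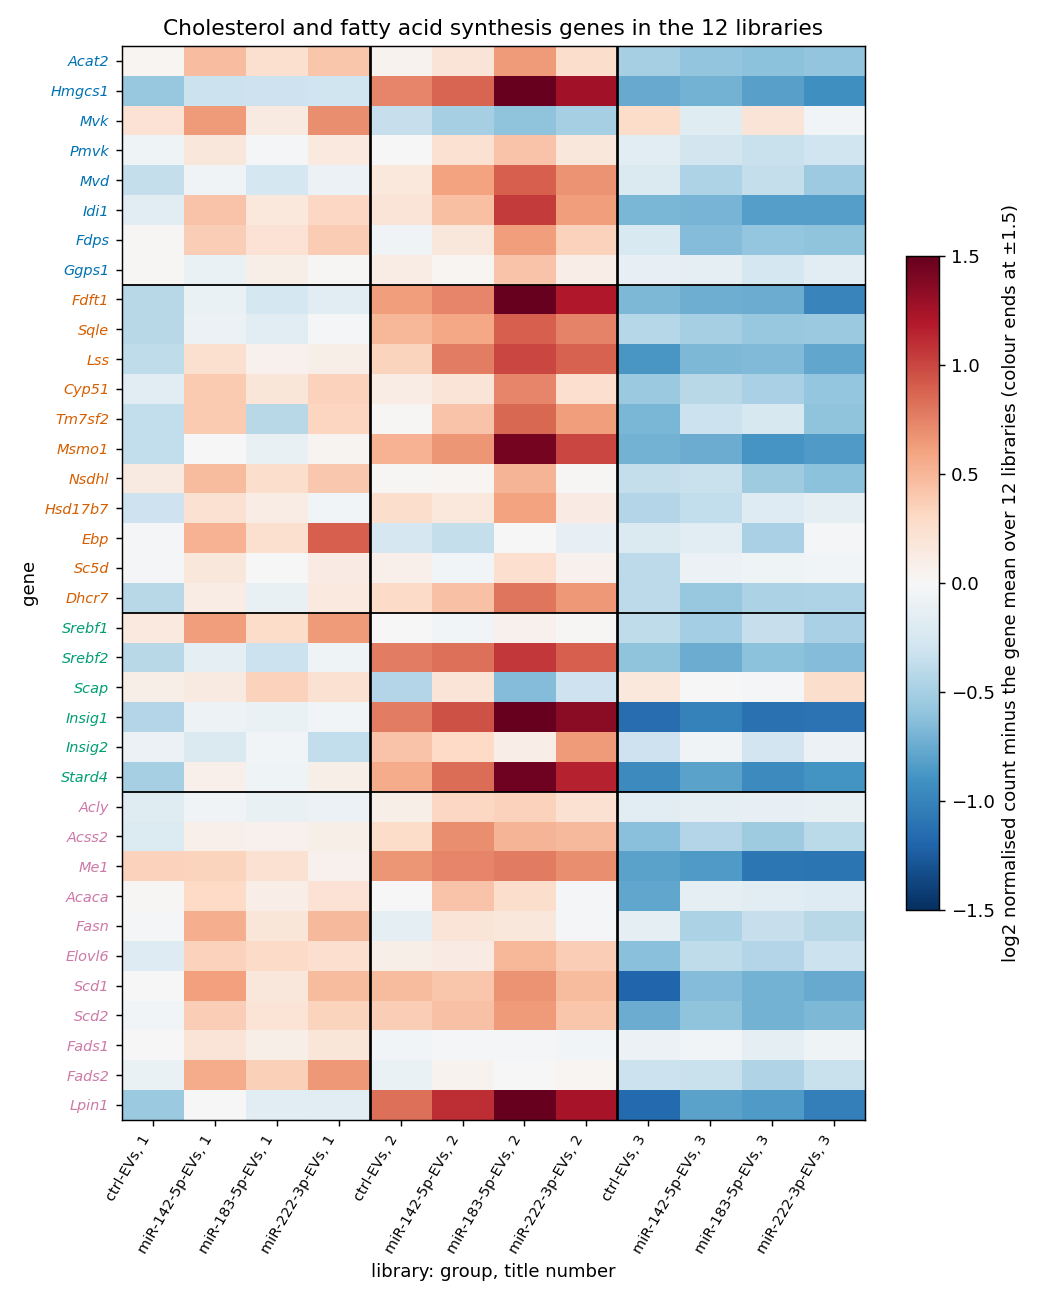
Heat map of the 36 genes (vertical axis, grouped and coloured by role) in the 12 libraries (horizontal axis, ordered by title number and then treatment), with colour giving the log2 normalised count after subtraction of each gene's average. Most genes were highest in number 2 and lowest in number 3, and Mvk and Scap were lower in number 2.

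**Figure D2:**
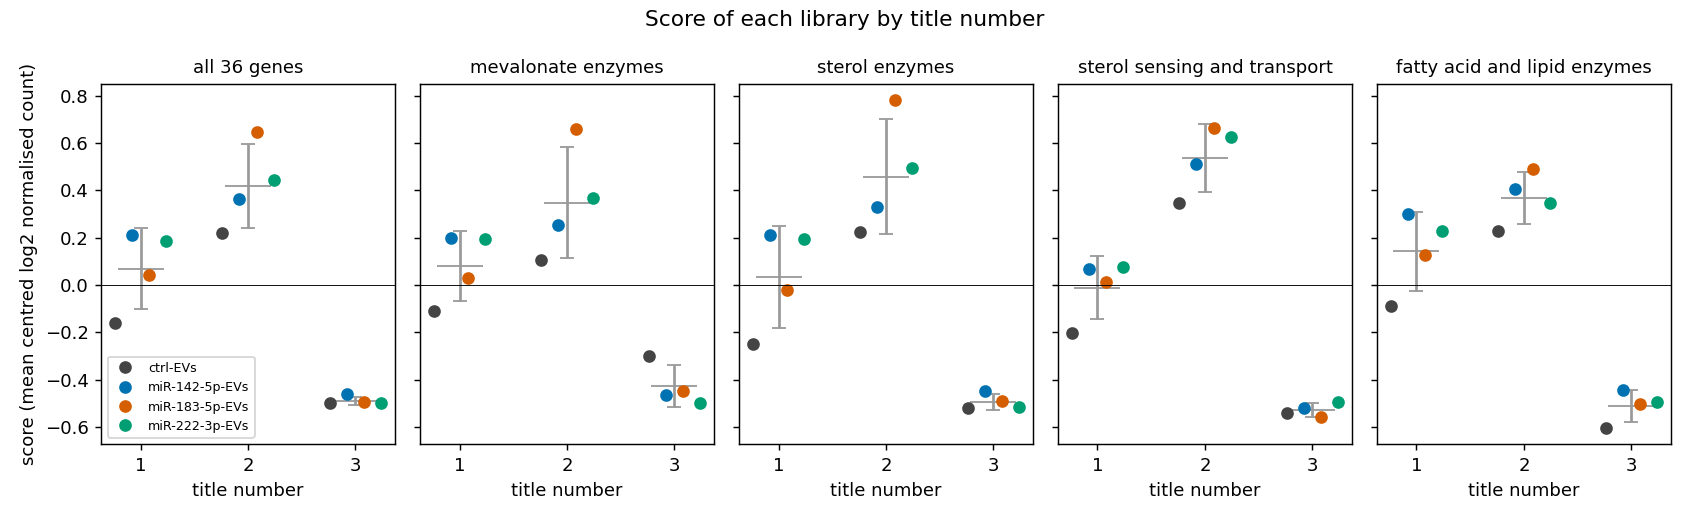
Score of each library (vertical axis, mean centred log2 normalised count) by title number (horizontal axis) for all 36 genes and for each role, with grey bars giving mean ± SD of the 4 libraries. The 4 libraries of number 3 were lowest in every panel, and within numbers 1 and 2 ctrl-EVs were lowest in every panel.

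The order number 2 above number 1 above number 3 held within each of the 4 treatments for 15 of the 36 genes, a pattern that 5.59% of all tested genes had. These were Hmgcs1, Pmvk, Idi1, Ggps1, Fdft1, Sqle, Lss, Msmo1, Srebf2, Insig1, Stard4, Acss2, Me1, Scd2 and Lpin1, so all 4 roles were among them. Number 1 was above number 3 in all 4 treatments for 29 genes (20.0% of all tested genes), and number 2 was above both others in all 4 for 20 genes (25.2% of all tested genes). The 3 libraries of a treatment were thus spread over the range of the module.

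Number 2 was compared with the mean of numbers 1 and 3 in the DESeq2 model that held both number and treatment. Of the 36 genes 27 were higher in number 2 (adjusted p under 0.05), where 32.0% of all tested genes were, and 2 were lower, where 32.1% were. The median log2 difference of the 36 genes was 0.52, against 0.01 over all tested genes. The rises reached 3.74-fold, and the genes with the 12 largest differences covered sensing, squalene and lanosterol synthesis, the mevalonate steps and lipid enzymes. On the TPM scale the median log2 difference of all tested genes was -0.17 in this comparison. There 27 of the 36 genes kept a difference above 0 against 31 on the normalised scale, and Nsdhl, Sc5d, Srebf1 and Fasn, none of which passed the test, turned negative.

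Insig1, the sterol-responsive retention factor, had the largest rise. Here and below, the 4 values of a title number start with ctrl-EVs, go on with the mimics of miR-142-5p and then miR-183-5p, and end with miR-222-3p. Its normalised counts were 3058, 3966, 3880.2 and 4049 in number 1, 7096, 8043, 16150.0 and 10667 in number 2 and 1888, 2069, 1918 and 1937 in number 3. All 4 libraries of number 2 lay above the other 8, and the one with miR-183-5p-EVs was the highest (log2 difference 1.90 ± 0.13 SE, adjusted p = 6.39e-46). Insig2, its less regulated relative, rose by 0.55 ± 0.11 (adjusted p = 2.36e-06). Counts of Srebf2 were 3666, 4448, 3893 and 4684 in number 1, 8332, 8649.6, 10164 and 9096 in number 2 and 3215, 2919, 3186 and 3117 in number 3. Again number 2 stood wholly above the rest (log2 difference 1.33 ± 0.08, adjusted p = 9.28e-60). Srebf1, by contrast, had counts of 1595, 1532, 1658 and 1600.2 in number 2 within the range of the others (log2 difference 0.01 ± 0.10, adjusted p = 0.915). The carrier Stard4 was measured at 1377, 2055, 1865 and 2069.8 in number 1, 2878, 3497, 5376 and 4338 in number 2 and 1004, 1117, 1006 and 1043 in number 3. It was higher in number 2 without overlap (1.52 ± 0.11, adjusted p = 9.54e-39). Scap moved the other way, with 554, 865, 482 and 609.7 normalised counts in number 2 against 801 to 961 in number 1 and 746 to 906 in number 3. Its log2 difference was -0.44 ± 0.13 (adjusted p = 0.00147), although the miR-142-5p-EV library of number 2 overlapped the others.

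Among the mevalonate enzymes 7 of 8 were higher in number 2 and Mvk was lower. Hmgcs1, which condenses acetyl-CoA with acetoacetyl-CoA, had counts of 1857, 2208, 2225 and 2241 in number 1, 4598, 5076, 9749.8 and 6639.8 in number 2 and 1638, 1686, 1576 and 1463 in number 3. Every library of number 2 exceeded those of numbers 1 and 3, and the log2 difference was 1.78 ± 0.13 (adjusted p = 2.62e-41). For Mvd the counts were 972, 1202, 1037 and 1167 in number 1, 1392, 1884, 2318 and 1984 in number 2 and 1071, 900.1, 969.6 and 853 in number 3. Number 2 was above without overlap (0.88 ± 0.12, adjusted p = 3.08e-13). Idi1 gave 1870.3, 2814, 2343 and 2597 in number 1, 2395, 2862, 4337 and 3241 in number 2 and 1307, 1290.0, 1184 and 1186 in number 3. It rose as well (0.87 ± 0.12, adjusted p = 5.27e-12), but the ctrl-EV library of number 2 lay within the range of number 1. Acat2, Fdps, Pmvk and Ggps1 rose by 0.43, 0.41, 0.31 and 0.25 on the log2 scale, each with groups that overlapped. Mvk alone fell without overlap, with mean counts of 343 ± 67.9 in number 1, 179.6 ± 13.5 in number 2 and 265 ± 38.5 in number 3 (SD, n = 4; log2 difference -0.75 ± 0.15, adjusted p = 2.63e-06).

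Of the sterol enzymes 8 of 11 were higher in number 2 and 0 were lower. Fdft1, the first enzyme committed to sterols, had counts of 835, 1040.2, 931 and 991 in number 1, 1723, 1858, 3221 and 2560.2 in number 2 and 700.2, 672, 665 and 561 in number 3. These groups did not overlap (log2 difference 1.55 ± 0.13, adjusted p = 1.71e-30). The lanosterol synthase Lss gave 1982, 3032, 2684 and 2732 in number 1, 3245, 4388, 5150.0 and 4746 in number 2 and 1406, 1613, 1632 and 1497 in number 3. Its number 2 libraries were all above the rest (1.12 ± 0.08, adjusted p = 2.71e-39). Msmo1, which oxidises methyl groups of the sterol ring, was at 1719, 2225, 2053 and 2293 in number 1, 3197, 3520.2, 6029 and 4437 in number 2 and 1362, 1322, 1199 and 1227 in number 3. It too was higher in number 2 without overlap (1.37 ± 0.13, adjusted p = 3.08e-26), as was Sqle, with 2032, 2545, 2428 and 2647 in number 1, 3821, 4054, 5048 and 4526 in number 2 and 2006, 1916, 1823 and 1832 in number 3 (1.02 ± 0.09, adjusted p = 4.38e-30). Dhcr7, Tm7sf2, Cyp51 and Hsd17b7 also passed the test, at log2 differences of 0.82, 0.73, 0.49 and 0.43. The 3 that did not pass were Nsdhl (0.22 ± 0.12), Sc5d (0.13 ± 0.09) and Ebp (-0.28 ± 0.14), all of the later steps.

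In fatty acid and lipid synthesis 8 of 11 genes were higher in number 2, and the largest rise was that of Lpin1, which makes diacylglycerol. Its normalised counts were 1532, 2276, 2011 and 2025 in number 1, 4020.3, 4855, 6678 and 5302 in number 2 and 1006, 1289.8, 1250.2 and 1106 in number 3. Number 2 stood clear above every other library (log2 difference 1.78 ± 0.09, adjusted p = 6.95e-87). Me1 had 12201, 12129.8, 11246 and 10032 in number 1, 15212, 15899.8, 16424 and 15585 in number 2 and 5486, 5310.0, 4514 and 4479.8 in number 3. Its number 2 values were above all others, and numbers 1 and 3 were themselves far apart (log2 difference 1.08 ± 0.07, adjusted p = 3.15e-52). Scd1, Acss2, Scd2, Elovl6, Acly and Acaca rose by 0.77, 0.74, 0.70, 0.41, 0.36 and 0.25. Fasn, Fads2 and Fads1 did not pass (0.06 ± 0.11, -0.02 ± 0.10 and -0.06 ± 0.06).

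**Figure D3:**
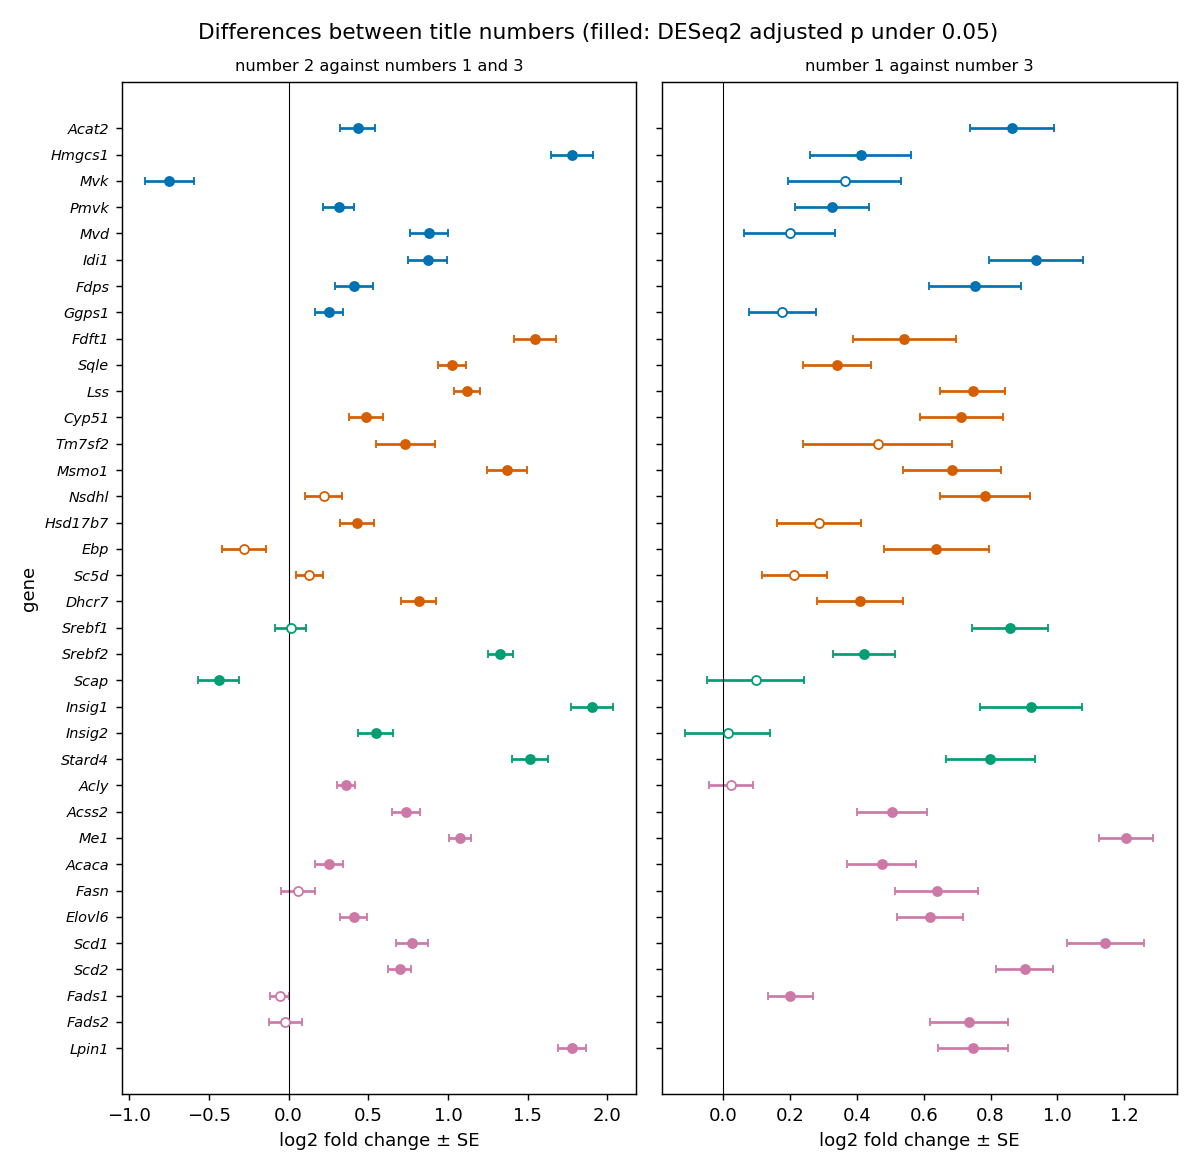
Log2 fold change ± SE (horizontal axis) of each of the 36 genes (vertical axis, coloured by role) for number 2 against numbers 1 and 3 (left) and number 1 against number 3 (right), filled where the DESeq2 adjusted p was under 0.05. Insig1 had the largest value on the left (1.90) and Me1 on the right (1.21), and all 36 values on the right were above 0.

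Number 1 was then compared with number 3. All 36 genes had a log2 difference above 0, 27 passed the test as higher in number 1, where 12.9% of all tested genes did, and 0 as lower, where 10.5% did. The median log2 difference was 0.58, against -0.01 over all tested genes. On the TPM scale, on which the median of all tested genes was -0.07, Insig2 and Acly turned negative, and both had failed the test. By role, 10 of 11 lipid enzymes, 8 of 11 sterol enzymes, 5 of 8 mevalonate enzymes and 4 of 6 sensing genes were called.

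Me1, with the values given above, had the largest difference (1.21 ± 0.08 SE, adjusted p = 2.77e-47). Scd1 was next, with 4401, 6765, 4978 and 6149 in number 1, 6151, 5911, 7073 and 6169 in number 2 and 1944, 2819, 2706 and 2621 in number 3. Number 3 lay below both others, and the ctrl-EV library of number 3 was the lowest of the 12 (number 1 against 3, 1.14 ± 0.11, adjusted p = 4.85e-21). Its paralogue Scd2 had 46016, 61180.0, 54445 and 59768 in number 1 and 28328, 31088, 29030.1 and 29583 in number 3. The 2 sets did not overlap (0.90 ± 0.08, adjusted p = 6.52e-24). Fads2, Fasn, Elovl6, Acss2, Acaca and Fads1 were higher in number 1 by 0.74, 0.64, 0.62, 0.51, 0.47 and 0.20, and Acly, at 0.02 ± 0.07, did not pass. Lpin1 rose by 0.75 ± 0.10 (adjusted p = 3.68e-11).

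Of the sterol genes, Idi1 (0.94 ± 0.14, adjusted p = 1.81e-09) and Insig1 (0.92 ± 0.15, adjusted p = 4.96e-08) differed most. For the thiolase Acat2 the counts were 1007, 1362, 1163 and 1309.9 in number 1 and 694, 655, 643 and 651 in number 3. They did not overlap (0.87 ± 0.13, adjusted p = 2.73e-10). Srebf1, which favours fatty acid genes, had 1749, 2439, 1912 and 2458 in number 1 against 1212, 1110.5, 1243 and 1133 in number 3. All of number 1 was above (0.86 ± 0.11, adjusted p = 2.88e-12), and Srebf2 was higher by 0.42 ± 0.09 (adjusted p = 9.11e-05). Nsdhl, with 646, 819.5, 707 and 783 against 459.9, 466, 407 and 384, and Fdps, with 4627, 5903, 5284 and 5920.1 against 3886, 2897, 3056 and 2997, were higher too, at 0.78 ± 0.13 (adjusted p = 1.85e-07) and 0.75 ± 0.14 (adjusted p = 1.30e-06). Stard4 and Lss rose by 0.80 and 0.75, and Cyp51, Msmo1, Ebp, Fdft1, Dhcr7, Hmgcs1, Sqle and Pmvk by 0.71, 0.68, 0.64, 0.54, 0.41, 0.41, 0.34 and 0.33. Tm7sf2, Mvk, Hsd17b7, Sc5d, Mvd, Ggps1, Scap and Insig2 did not pass, at 0.46, 0.36, 0.29, 0.21, 0.20, 0.18, 0.10 and 0.02.

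Another 40 genes of the same pathways that are no part of the module were counted for comparison. In number 2 against numbers 1 and 3, 12 were higher (30.0%, against 32.0% of all tested genes) and 15 lower (32.1% of all tested genes), both near the background, with a median log2 difference of -0.07. In number 1 against number 3, 10 were higher (25.0%, against 12.9% of all tested genes) and 5 lower (10.5% of all tested genes), with a median of 0.04. Npc1, which lets cholesterol leave lysosomes, was lower in both comparisons (-0.65 and -0.32), and Agpat2, which makes phosphatidate, was lower in number 2 (-1.16). The 10 macrophage markers had no common direction in number 2, with 2 called higher (Adgre1 and Cd68), 4 lower (Csf1r, Spi1, Cd14 and Fcer1g) and a median log2 difference of -0.05. Their log2 differences ran from -1.48 for the receptor Cd14 to 0.69 for Adgre1.

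To see what the members with the largest differences share in sequence, the windows from 250 bases before to 50 after the transcription start in RefSeq (build GRCm38.p6) were searched on both strands for the sterol regulatory element TCACNCCAC, at which the proteins of Srebf1 and Srebf2 bind, the NF-Y box CCAAT and the E-box CACGTG. A window was listed for 29 of the 36 genes. The NF-Y box was found for 23 of these 29, against 37.4% of all 32851 windows and 43.2% of tested genes with a window. The E-box was found for 5 (7.15% of all windows and 11.3% of tested genes) and the sterol element, in these exact letters, for 1, Hmgcs1 (1.24% of all windows and 1.38% of tested genes). A match is a description of letters and not of binding, and the motifs do not overlap in the windows shown. The windows of the 5 members with the largest differences that had 1 listed are given 5′ to 3′, with motif matches on either strand in capitals.
Insig1, chr5:28071162-28071461, plus strand: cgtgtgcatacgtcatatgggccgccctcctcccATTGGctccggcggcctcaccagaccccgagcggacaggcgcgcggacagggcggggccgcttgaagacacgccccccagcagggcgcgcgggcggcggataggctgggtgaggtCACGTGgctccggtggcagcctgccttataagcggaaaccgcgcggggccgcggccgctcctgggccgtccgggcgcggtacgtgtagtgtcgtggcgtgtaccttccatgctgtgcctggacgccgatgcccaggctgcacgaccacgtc
Lpin1, chr12:16610917-16611216, minus strand: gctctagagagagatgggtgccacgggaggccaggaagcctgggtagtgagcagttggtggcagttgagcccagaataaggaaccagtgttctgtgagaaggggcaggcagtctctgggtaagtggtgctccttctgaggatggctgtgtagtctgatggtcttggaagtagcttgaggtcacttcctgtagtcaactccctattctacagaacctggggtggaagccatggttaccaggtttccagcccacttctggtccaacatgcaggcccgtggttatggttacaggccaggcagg
Hmgcs1, chr13:119690101-119690400, plus strand: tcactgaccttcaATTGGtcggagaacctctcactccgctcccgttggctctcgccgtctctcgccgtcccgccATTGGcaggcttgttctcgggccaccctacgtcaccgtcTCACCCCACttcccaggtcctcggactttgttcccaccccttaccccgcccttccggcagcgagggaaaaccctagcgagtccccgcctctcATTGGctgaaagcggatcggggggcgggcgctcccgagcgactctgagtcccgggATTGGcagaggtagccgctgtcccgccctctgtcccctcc
Msmo1, chr8:64733529-64733828, minus strand: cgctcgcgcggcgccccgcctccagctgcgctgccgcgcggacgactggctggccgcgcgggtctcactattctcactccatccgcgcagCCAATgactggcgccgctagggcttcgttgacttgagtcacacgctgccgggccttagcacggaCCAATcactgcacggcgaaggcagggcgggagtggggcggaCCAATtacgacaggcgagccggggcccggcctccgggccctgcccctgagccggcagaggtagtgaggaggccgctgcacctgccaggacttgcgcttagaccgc
Srebf2, chr15:82147019-82147318, plus strand: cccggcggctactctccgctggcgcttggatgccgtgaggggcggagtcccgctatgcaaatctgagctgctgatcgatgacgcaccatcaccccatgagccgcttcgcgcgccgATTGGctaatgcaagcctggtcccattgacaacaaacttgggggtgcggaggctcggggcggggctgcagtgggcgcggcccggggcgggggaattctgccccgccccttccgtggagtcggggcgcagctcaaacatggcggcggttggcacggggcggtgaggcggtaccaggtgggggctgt
Hmgcs1 holds the sterol element and 4 NF-Y boxes, Msmo1 3 NF-Y boxes, Srebf2 1, and Insig1 1 with an E-box. The window listed for Lpin1 has none of the 3 motifs, and whether its transcripts start there in these cells was not tested.

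The delivered miRNAs act by pairing their seed, nucleotides 2 to 8, with sites in 3′ UTRs, and the 3 mature sequences, shown with the seed in capitals, share no seed.
miR-142-5p: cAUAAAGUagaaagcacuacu
miR-183-5p: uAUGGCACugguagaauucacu
miR-222-3p: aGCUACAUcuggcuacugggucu
In the study's supplement the miR-222-3p mimic is shorter, without the last bases shown here and with the same seed. The 3 sequences shown are RefSeq entries, in build GRCm38.p6. The first, listed as miR-142a-5p, lies at chr11:87756867-87756887 on the plus strand, the second at chr6:30169711-30169732 and the last at chrX:19146901-19146923, both on the minus strand. In the 3′ UTR of each gene's main transcript, a match to the 7 seed letters of miR-142-5p was present in 6 of the 33 members with an annotated 3′ UTR there (13.9% of 11377 tested genes), namely Hmgcs1, Ggps1, Stard4, with 3 matches, Me1, Acaca and Elovl6. For miR-183-5p it was 2 (9.10% of tested genes), Mvd and Sc5d, and for miR-222-3p 4 (9.28%), Hmgcs1, Fdft1, Insig1 and Elovl6. With the mimic in question, 5 of 6, 2 of 2 and 4 of 4 of these genes had a log2 difference above 0 from ctrl-EVs. The median of the genes with a match was 0.21, 0.20 and 0.27, and that of the members without one was 0.17, 0.20 and 0.16.

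Each mimic was compared with ctrl-EVs in the model that held the title number. The module was slightly higher with all 3 mimics, and few of its genes passed the test. The median log2 difference was 0.16 under the miR-142-5p mimic, 0.19 under that of miR-183-5p and 0.16 under that of miR-222-3p, where all tested genes had medians from -0.01 to 0.001, and 34, 32 and 34 of the 36 genes were above 0. With miR-183-5p-EVs 2 genes, Lpin1 and Lss, were called higher, where 0.316% of all tested genes were. The miR-142-5p mimic had 0 called members, where 0.0288% of all tested genes were called higher, and that of miR-222-3p also 0, where 0.0431% were. At an unadjusted p under 0.05 there were 9, 12 and 9 members, all higher, and 815, 1409 and 908 of the 13906 tested genes. With edgeR 0 members, and 0 of all tested genes, were called in each of the 3, with 882, 1478 and 978 tested genes at an unadjusted p under 0.05. The 3 comparisons share the same 3 ctrl-EV libraries and are not independent of each other. Their DESeq2 calls also rest on unlike sets of genes, since 0, 3505 and 7549 tested genes were left without an adjusted p.

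Taking the 9 miR-EV libraries together against the 3 ctrl-EV libraries, 5 members were higher, where 1.04% of all tested genes were, and 0 lower, where 0.568% were. They were Lss, Lpin1, Stard4, Acaca and Elovl6. For Lss, whose normalised counts are given above, the ctrl-EV libraries of numbers 1, 2 and 3 stood at 1982, 3245 and 1406. Within each number every miR-EV library was above its ctrl-EV library, although the groups overlap across numbers (log2 difference 0.41 ± 0.08 SE, adjusted p = 0.000943). The same 9 of 9 held for Lpin1, with ctrl-EV libraries at 1532, 4020.3 and 1006 (0.40 ± 0.10, adjusted p = 0.00597). Stard4 was also higher in 9 of 9 (0.40 ± 0.12, adjusted p = 0.0468), although in number 3 the miR-183-5p-EV library stood at 1006 against 1004 in its control.

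Elovl6 counts were 1416, 2063, 1966 and 1921 in number 1, 1724, 1766, 2287 and 2081 in number 2 and 1044, 1243, 1188 and 1294 in number 3. Each miR-EV library was above the control of its number (0.33 ± 0.08, adjusted p = 0.0128). Acaca had 4289, 5211, 4539 and 4921 in number 1, 4278, 5691, 5102 and 4175 in number 2 and 2467, 3838, 3767 and 3723 in number 3. It was higher in 8 of 9 (0.34 ± 0.10, adjusted p = 0.0390), and the widest gap was in number 3, where the ctrl-EV library was the lowest of the 12. In the single comparison with miR-183-5p-EVs, Lpin1 was higher by 0.49 ± 0.12 (adjusted p = 0.0222) and Lss by 0.44 ± 0.11 (adjusted p = 0.0314). Insig1, with the largest value there (0.54 ± 0.18), did not pass (adjusted p = 0.122).

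With miR-142-5p-EVs the 3 largest values belonged to Tm7sf2 (0.52 ± 0.26, adjusted p = 0.828), Acaca (0.44 ± 0.12, adjusted p = 0.168) and Lss (0.42 ± 0.11, adjusted p = 0.168). With miR-222-3p-EVs they were Tm7sf2 (0.48 ± 0.26), Ebp (0.42 ± 0.18) and Stard4 (0.41 ± 0.15, adjusted p = 0.376), and DESeq2's filter on low means gave 5 members, Tm7sf2 and Ebp among them, no adjusted p. Tm7sf2 was the least abundant member, with normalised counts of 92.7, 157, 89.2 and 149.5 in number 1, 122, 162, 218 and 185 in number 2 and 74.0, 95.7, 101 and 78.7 in number 3. Ebp counts were 336, 287 and 294 with ctrl-EVs and 636, 314 and 337 under the miR-222-3p mimic, a gap that was wide in number 1 and small in numbers 2 and 3. Values below 0 in the joint comparison were those of Me1 (-0.09 ± 0.08), Mvk (-0.06 ± 0.15), Insig2 and Ggps1, and the last 2 were above 0 on the TPM scale. Among the 40 other pathway genes 1 was called higher in the joint comparison and 1 lower (1.04% and 0.568% of all tested genes). With miR-183-5p-EVs 1 of the 40 was called higher, where 0.316% of all tested genes were, and with each other mimic 0 were called. The gene called lower in the joint comparison was Agpat2 (-0.40 ± 0.12, adjusted p = 0.0481). Its call was lost in 5 of 7 alternatives, among them the model without the title number (log2 difference -0.35) and edgeR (-0.40). It was also lost in 12 of 15 fits that left out libraries.

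**Figure D4:**
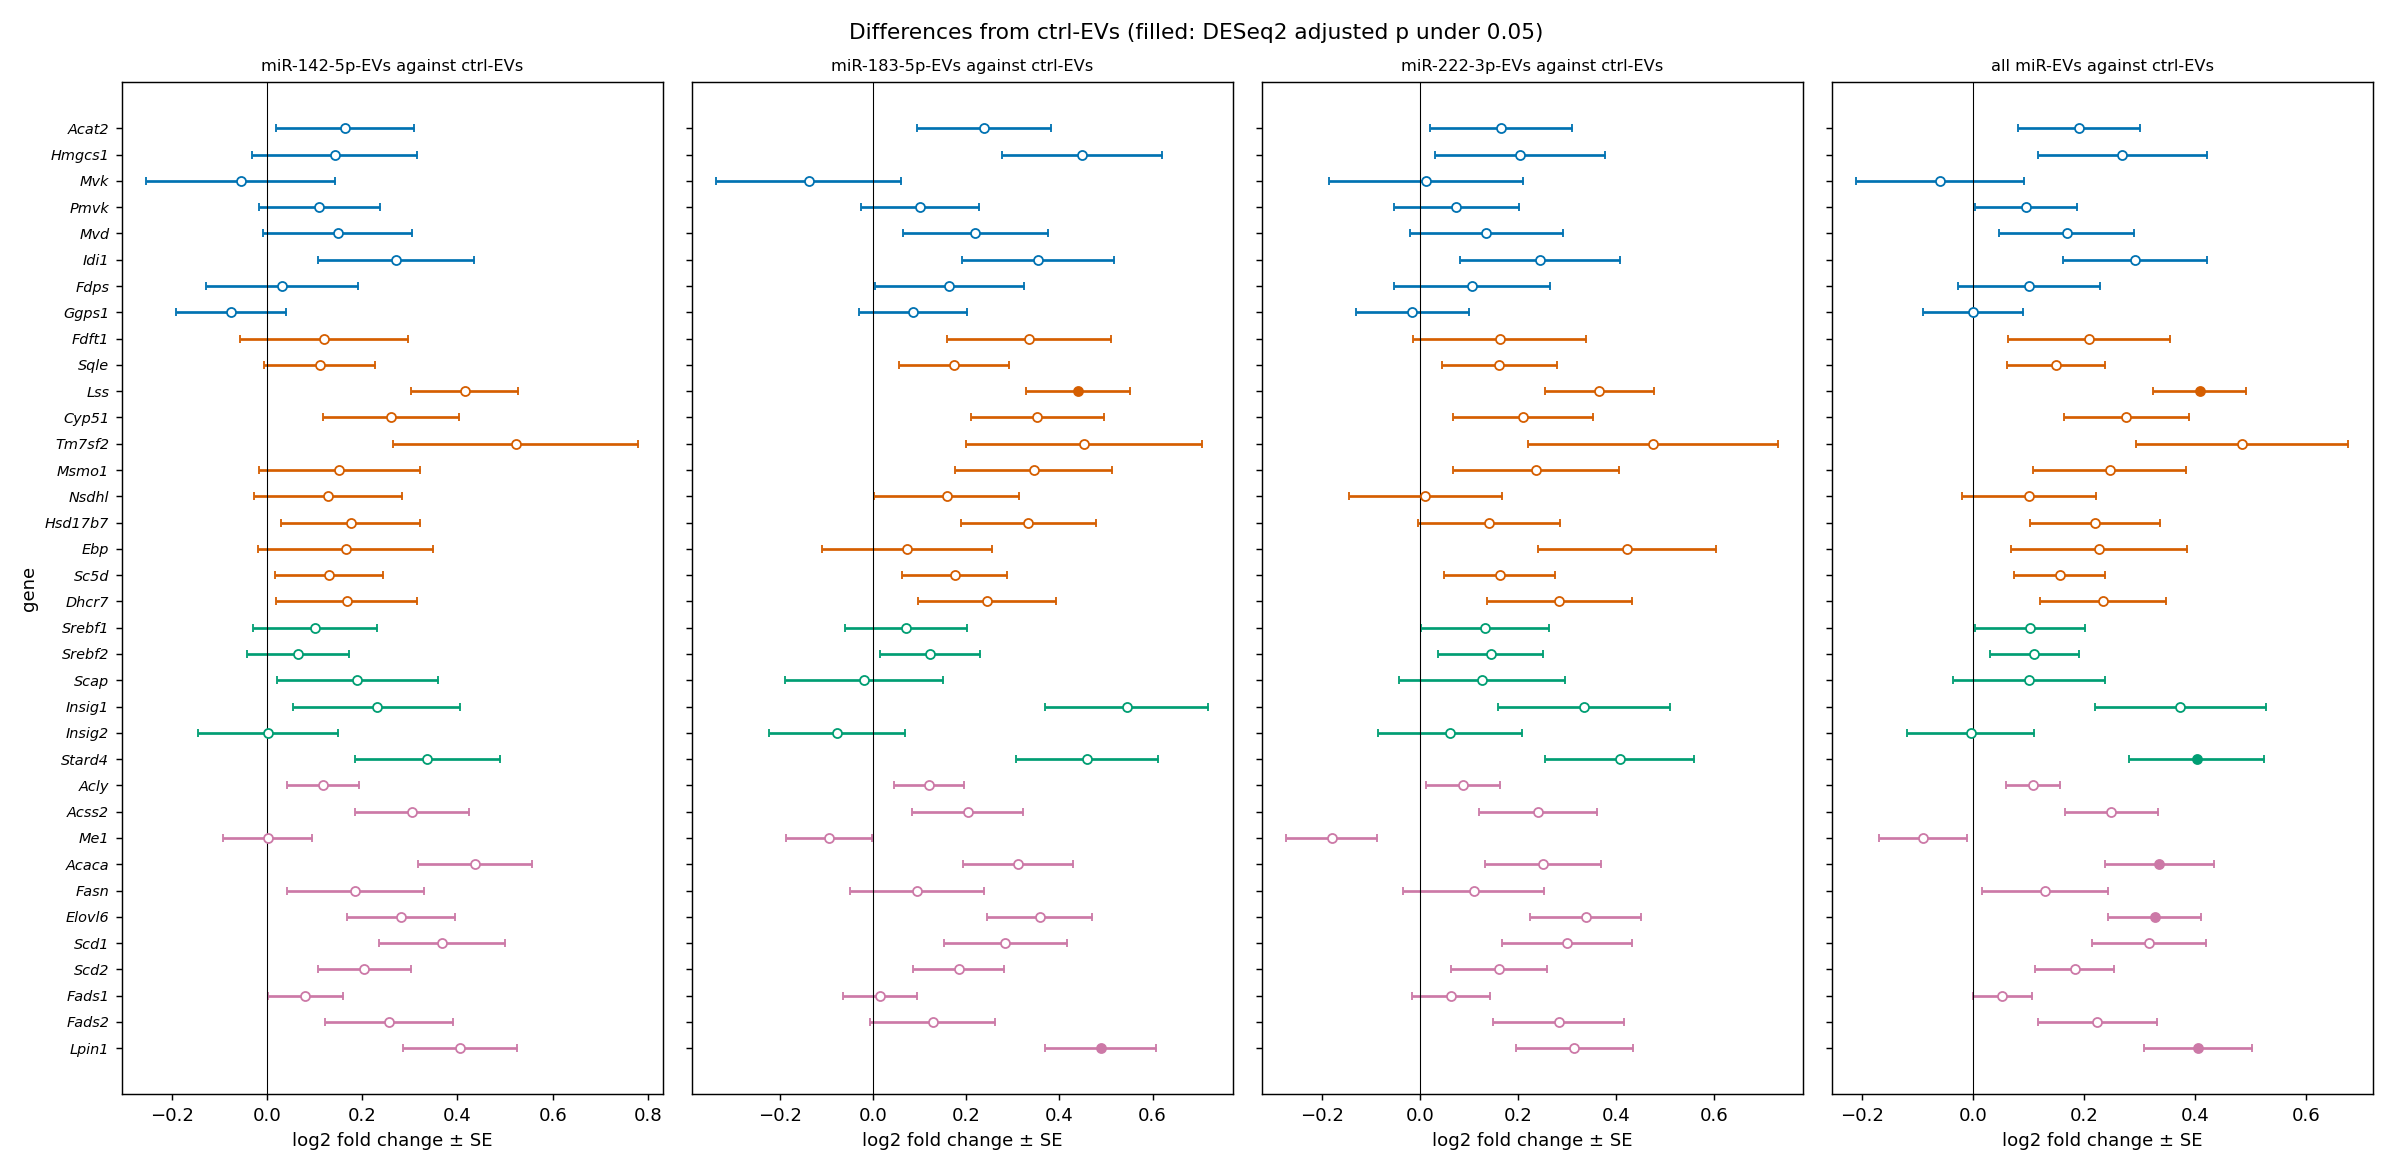
Log2 fold change ± SE (horizontal axis) of each of the 36 genes (vertical axis, coloured by role) with each mimic and with all miR-EV libraries against ctrl-EVs, filled where the DESeq2 adjusted p was under 0.05. Most values lay between 0 and 0.50, with 2 filled for miR-183-5p-EVs and 5 for all miR-EVs.

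The number of calls moved with the model and with single libraries, over all genes as well as over the 36. Without the title number in the model 0 members were called in each of the 4 comparisons with ctrl-EVs, and 1, 0, 0 and 0 of the 13906 tested genes, all miR-EVs being last. For all miR-EVs edgeR called 0 members and 0 of all tested genes, with 14 members and 1830 tested genes at an unadjusted p under 0.05. The log2 differences of the 5 called members were then 0.31 to 0.50 without the title number and 0.33 to 0.41 with edgeR. The 5 calls for all miR-EVs became 11 without ctrl-EVs replicate 3 and 2 without ctrl-EVs replicate 1, while the calls over all tested genes went from 223 to 479 and 275. They became 3 on leaving out replicate 1 or 3 of the miR-142-5p group, replicate 3 of the miR-183-5p group, or replicate 1 or 3 of the miR-222-3p group. The 2 calls for miR-183-5p-EVs became 6 without ctrl-EVs replicate 3, 1 without ctrl-EVs replicate 1, and 0 without replicate 2 of ctrl-EVs or of miR-183-5p-EVs. For miR-142-5p-EVs 1, 2 and 2 members were called without ctrl-EVs replicates 1, 2 and 3 and 3 without miR-142-5p-EVs replicate 2, and for miR-222-3p-EVs 2 were called without ctrl-EVs replicate 3.

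The difference from ctrl-EVs was unequal between the title numbers. In number 1 the 3 miR-EV libraries, in the order above, had 33, 33 and 34 of the 36 genes above the ctrl-EV library of that number, and in number 2 they had 28, 33 and 30. In number 3 the counts were 19, 16 and 17 of 36, while over all tested genes 47.0% to 52.0% were above in every one of the 9 libraries. The score of the 36 genes differed from its control by 0.37, 0.20 and 0.35 in number 1, by 0.15, 0.43 and 0.22 in number 2, and by 0.04, 0.004 and -0.0003 in number 3. The mean of the 9 differences was 0.20 ± 0.16 (SD), and the 3 of a number share 1 ctrl-EV library, so that they are not 9 independent measurements. The miR-183-5p-EV library of number 2 stood highest, with Insig1 at 16150.0, Hmgcs1 at 9749.8 and Fdft1 at 3221 normalised counts, against 7096, 4598 and 1723 in its control.

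All 6 miR-EV libraries of numbers 1 and 2 were above the control of their number for 23 of the 36 genes, a pattern of 11.3% of all tested genes. In number 3, all 3 miR-EV libraries were above the control for 14 genes (33.0% of all tested genes) and all 3 below it for 15 (37.6%). All 9 were above for 8 genes, Lss, Insig1, Stard4, Acly, Acss2, Elovl6, Scd2 and Lpin1 (3.67% of all tested genes), and all 9 below for 0. The 15 that were below in number 3 included 7 of the 8 mevalonate enzymes (Acat2, Mvk, Pmvk, Mvd, Idi1, Fdps and Ggps1), the exception being Hmgcs1. Among lipid enzymes, Acly, Acss2, Acaca, Elovl6, Scd1, Scd2 and Lpin1 were above in number 3 as well. By role, the mean score difference of the 3 miR-EV libraries in numbers 1, 2 and 3 was 0.25, 0.32 and -0.17 for mevalonate enzymes, 0.38, 0.31 and 0.04 for sterol enzymes, 0.26, 0.25 and 0.02 for sensing and transport, and 0.30, 0.19 and 0.12 for lipid enzymes. Whether the effect of the mimics differed between numbers was not tested, since each number holds 1 ctrl-EV library.

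**Figure D5:**
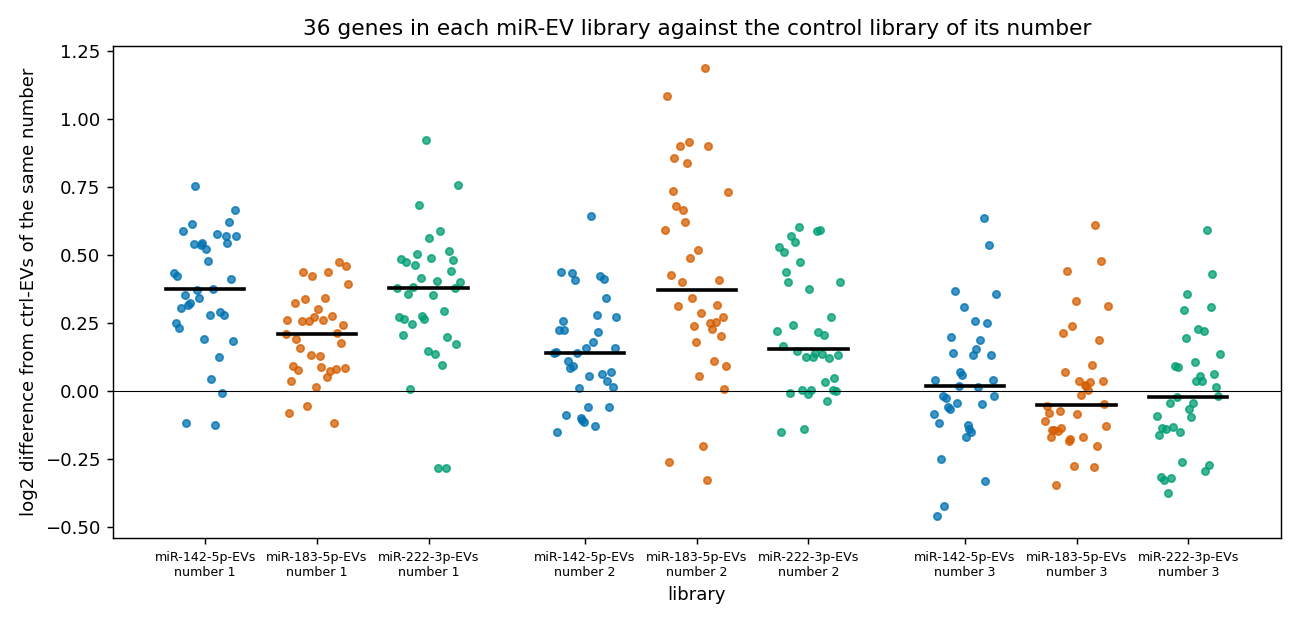
Log2 difference of each of the 36 genes (points, in the order of the roles) between a miR-EV library and the ctrl-EV library of the same title number (vertical axis) for the 9 miR-EV libraries (horizontal axis), with black bars at the median. The medians were 0.37, 0.21 and 0.38 in number 1, 0.14, 0.37 and 0.16 in number 2, and 0.02, -0.05 and -0.02 in number 3.

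Some members share sequence with other genes, so that their estimated counts depend on how shared reads were divided. Of the 31-base words of the main transcript, 85.7% were also found in another gene for Fdps (closest, the overlapping Gm43738), 59.9% for Acaca (Gm5182), 50.5% for Acat2 (Acat3), 48.2% for Scd1 (Scd3), 35.3% for Me1 (Gm7049), 22.1% for Idi1, 21.3% for Fdft1 and 12.2% for Ggps1, and under 7% for each of the others. The values of these 8 are uncertain, but the shares describe 1 transcript per gene and do not measure by how much. For Scd1, Acly and Srebf1 that transcript held 720, 742 and 632 such words and had no annotated 3′ UTR. The exons of these genes cover 4892, 5279 and 5634 bases, so their shares leave out much of the gene. Exons of Fdft1 overlap those of Ctsb, a lysosomal protease gene on the opposite strand, over 18.3% of their length, those of Scap overlap 5830462I19Rik over 13.2% and those of Hmgcs1 overlap Gm48342 over 12.1%, also on the opposite strand. On the same strand, Fdps overlaps Gm43738 over 26.7% and Tm7sf2 overlaps Vps51 over 12.1%. The other members overlapped other genes over less than 10% of their exons or not at all. The library kit keeps the strand, but whether the counting used it is not given in the sources used here.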

How the data were processed

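Poly(A) RNA of RAW 264.7 cells was sequenced in 12 libraries (4 groups of 3). The authors assigned paired, stranded reads to mouse Ensembl transcripts with Salmon and deposited, per transcript and library, estimated counts, TPM and effective lengths in bases. The Ensembl release differs between the study's methods and the file labels, and the processing notes name GRCh38, a human build, so transcripts were matched by identifier to GENCODE vM21 (GRCm38). Of 118783 transcripts 116622 matched, and the rest held 0.605% to 0.707% of counts.

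Estimated counts were summed by gene, rounded and fitted in DESeq2 1.42.0 (R 4.3.3) with an effective-length offset, group and title number, over the 13906 genes that reached 10 counts in 3 or more libraries. The joint comparison came from a separate fit with title number and miR-EVs against ctrl-EVs in place of group. There the mimics were pooled, so differences between mimics are part of the spread. Two-sided Wald tests were adjusted by Benjamini-Hochberg over the genes that passed DESeq2's filter on low means. Calls were made at an adjusted p under 0.05, and genes left without one stayed so and count as not called. These were 7549 of the 13906 tested genes for the miR-222-3p mimic, 4045 for all miR-EVs together and 3505 for the miR-183-5p mimic. For the miR-142-5p mimic and for the title numbers they were 0. Counts of calls in these comparisons therefore rest on unlike sets of genes. Libraries of 1 number deviated together from their group means (mean r = 0.608 over 18 pairs, lowest 0.409, over 13906 genes), which was the ground for the block. Fits were also run on simulated counts as a check of the code. There the shift of a title number was equal in all groups, so differences from ctrl-EVs that vary between numbers were not covered. Alternatives were edgeR 4.0.16, TMM factors, no filter, no length offset, length or GC correction, fewer libraries and no block. Values per library and test were given for up to 12 members called in a comparison, by size of the log2 difference, and otherwise for the 3 with the largest difference. The values of Scap, Mvk, Insig2 and other called members beyond that limit, and the choice of Npc1 and Agpat2 among the other pathway genes, were added after their values were seen. The members and all lists were chosen with earlier results of these data known. Some genes among the other pathway genes are counted but not reported here by name.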

Additional observations from a re-analysis of the deposited data

Results flagged for a closer look

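Among the 4 libraries of a title number, 6 values stood apart from the other 3 by Dixon's test, of 81 groups tested, and chance marks about 1 in 20 groups. In number 3, the score of the 36 genes was -0.46 with miR-142-5p-EVs, with the nearest other at -0.50. In the same number the ctrl-EV library had 2467 normalised counts of Acaca, with the nearest other library at 3723, and 3886 of Fdps, with the nearest at 3056. The ctrl-EV library of number 1 had 1857 normalised counts of Hmgcs1, below the nearest at 2208, and 3058 of Insig1, below the nearest at 3880. In number 2, Nsdhl reached 837 with miR-183-5p-EVs, above the nearest at 601.

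The mevalonate enzymes were marked because all 3 miR-EV libraries moved one way in numbers 1 and 2 and the other way in number 3. The mean difference of their score from ctrl-EVs was -0.17 in number 3, against 0.25 in number 1 and 0.32 in number 2. The difference was not tested, and each mean rests on 1 ctrl-EV library.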

How the results depend on the processing

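The counts by title number kept their size: 29 called members for number 2 became 29 to 32 under the alternatives and 28 to 30 on leaving out a library, and 27 for number 1 against 3 became 26 to 29 and 22 to 28. The score difference of number 2 was 0.63 on normalised counts and 0.40 on TPM. The number of calls against ctrl-EVs varied more. The 2 calls for miR-183-5p-EVs became 0 without the replicate block, 0 with edgeR, 0 without the length offset, 0 with the length correction and 0 with only the libraries compared. For all miR-EVs the 5 calls became 0 without the replicate block, 0 with edgeR, 3 with TMM factors, 1 with the length correction, 4 without the filter, 7 without the length offset and 5 with the GC correction. Over all 13906 tested genes the 223 calls became 0 without the block and 0 with edgeR, and the log2 differences stayed at 0.34 to 0.47 for Lss and 0.34 to 0.45 for Lpin1 under the alternatives. The joint call was kept in 5 of 7 alternatives for Lss, 4 for Lpin1 and Elovl6, 3 for Acaca and 1 for Stard4. It was kept in 15, 12, 12, 7 and 4 of 15 fits that left out libraries, for these 5 genes in turn. Leaving out libraries gave 0 to 3 calls for miR-142-5p-EVs, 0 to 6 for miR-183-5p-EVs, 0 to 2 for miR-222-3p-EVs and 2 to 11 for all miR-EVs. The causes were not tested. Without the replicate block 0 members were called in the comparisons of miR-142-5p and of miR-222-3p, as with it, and the calls among the other pathway genes against ctrl-EVs were lost. The GC correction and leaving out all 4 libraries of a number were chosen after seeing the data.

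Depth did not limit detection of the 36 genes, since each had at least 75.5 estimated counts in every library. With 3 libraries a group and 1 of each group in a number, group effects within a number have no replicates, and what the number stands for cannot be told apart from any cause that varies with it.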
